A study of Mus musculus with 16 samples.

Results

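The 6401 regions described here gained the histone mark H3K27ac in plasmacytoid dendritic cells (pDC) over the common dendritic progenitor (CDP), at places where the authors' list of CDP against classical dendritic cells (cDC) holds no region. They were chosen by the measured signal. An autosomal region of the CDP and pDC list entered when the mean pDC signal plus 1 was at least 4 times the mean CDP signal plus 1. Its mean pDC signal also had to be at least 100, both pDC libraries had to lie above both CDP libraries, and no region of the CDP and cDC list could overlap it by 1 bp or more. Of 68385 autosomal regions in the CDP and pDC list, 10994 reached the ratio, 9557 of these reached the signal and 9552 of these had separate libraries. Of these 9552 pDC gains, 6401 (67.0%) lay outside the CDP and cDC list and the other 3151 overlapped it. The 4 lists of the series hold 273958 regions in all.

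Chromatin immunoprecipitation followed by sequencing was used to map H3K27ac in 4 sorted cell types of C57BL/6 mice, with 2 libraries each: pDC, cDC, the multipotent progenitor (MPP) and CDP. No other genotype, allele or treatment is named in the labels, and the sources used here do not give age, sex or animal. Each list compares a pair of cell types and gives 1 value per library and region, scaled by the authors. The labels do not say whether both libraries of each cell type stem from different animals or cultures, so the spread between them may be technical. With 2 libraries against 2, a two-sided exact permutation test cannot go below 0.333, and no test per region was made. In bulk chromatin, fewer cells that carry the mark and less of the mark per cell cannot be told apart. The identity of the sorted cells could not be checked against marker genes, because an annotation of the build of the coordinates (mm9) was not used here; regions are named by position only, without gene names.

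Acetylation of lysine 27 on histone H3 marks active promoters and enhancers, and enhancers that carry it differ widely between cell types. CDP are bone marrow progenitors that give rise to both cDC and pDC. pDC are known for secreting large amounts of type I interferon when they sense viral nucleic acids, whereas cDC are specialised in presenting antigen to T cells.

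By the medians over these regions, the pDC signal was high in both libraries and the CDP signal was low in both. The choice set a minimum for the mean pDC signal only, so a single pDC library could be low. The first-listed pDC library had a lowest, median and highest signal of 18, 389 and 17246, and the second-listed one had 16, 495 and 13955. The first-listed CDP library had 0, 31 and 488, and the second-listed one had 0, 45 and 676. No region had overlapping groups, since the choice asked for separate libraries, which 14.0% of all autosomal regions had together with the ratio and the minimum signal. The mean pDC signal had a median of 444.5, with quartiles of 204 and 944, against a mean CDP signal with a median of 38.5 and quartiles of 18 and 80. The ratio of pDC to CDP had a median of 11.2 and quartiles of 6.64 and 21.2. Over all autosomal regions of the list the median ratio was 1.02. These values chose the regions and are given as a description.

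The size of the gain varied widely. A ratio between 4 and 8 was found in 2190 regions (34.2%), between 8 and 16 in 2022 (31.6%) and between 16 and 32 in 1286 (20.1%). A further 573 (8.95%) lay between 32 and 64, and 330 (5.16%) reached 64 or more. In 66 regions both CDP libraries were listed at 0. The pDC libraries differed from each other less than the CDP libraries did: the median SD between libraries was 0.26 for pDC and 0.66 for CDP on the log2 scale of signal plus 1. The choice took high pDC and low CDP signal, so these spreads were read at unlike signal levels and their contrast is partly built in. The second-listed pDC library was above the first in 5231 regions (81.7%), with a median difference of 0.32, against 68.7% and 0.19 over all autosomal regions of the list, and 48 regions had pDC libraries more than 4-fold apart.

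**Figure D1:**
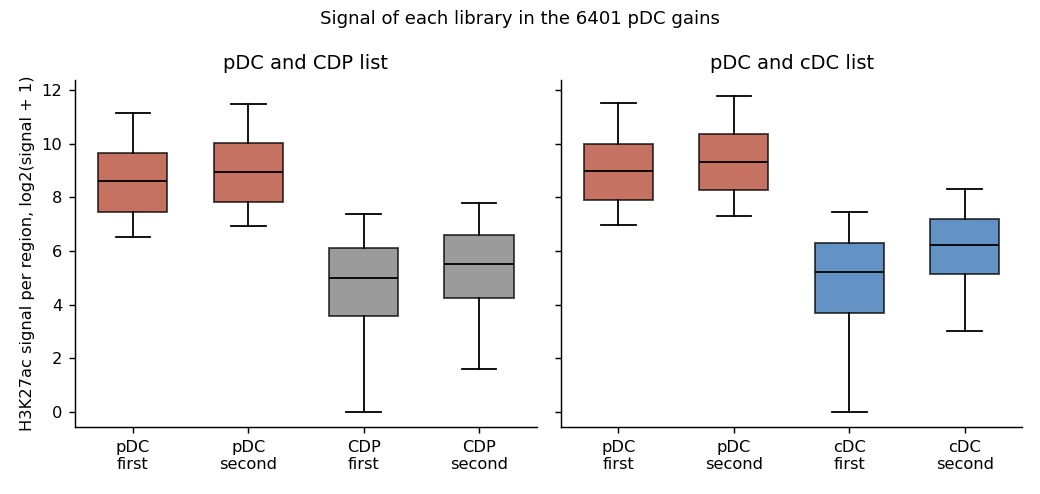
H3K27ac signal of each library in the 6401 pDC gains, as log2 of signal plus 1 (vertical axis), in the list of pDC and CDP and in the list of pDC and cDC. Boxes span the quartiles with the median as a line and whiskers run between the 5th and 95th percentiles. In both lists the boxes of the 2 pDC libraries lie above those of the other cell type.

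Regions just on either side of the thresholds had similar values. Just inside the ratio, a region on chromosome 1 from 184419451 to 184420000 had 239 and 219 in the pDC libraries, against 58 and 55 in the CDP libraries, a ratio of 4.00. Just outside it, a region on chromosome 8 from 77572251 to 77573450 had 397 and 404 in the pDC libraries, against 115 and 84 in the CDP libraries, a ratio of 3.995. At the minimum signal, a region on chromosome 19 from 44570801 to 44571150 had 83 and 117 in pDC, where both CDP libraries were listed at 0. Just under that minimum, a region on chromosome 11 from 115302751 to 115303100 had 83 and 116 in the pDC libraries, against 7 and 0 in the CDP libraries. The thresholds therefore cut through a continuous range. Outside the CDP and cDC list, 1537 regions with the minimum signal and separate libraries had a ratio between 2 and 4. Another 1325 with separate libraries reached the ratio with a mean pDC signal under 100.

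Nearly all of the regions outside the CDP and cDC list had low signal in both of its cell types, which the choice set in part. Every region in that list had at least 253 signal units per kb in the higher of its 2 groups, and 99% had at least 274. The mean CDP signal of the 6401 regions was 45.4 per kb at the median and 184 per kb at most, on the scale of the CDP and pDC list. All 6401 regions were under 274 per kb in CDP, and 6372 (99.5%) were under it in cDC, on the scale of the cDC and pDC list. Many pDC gains inside the CDP and cDC list were under it too. Their upper quartile was 185 per kb in CDP. Their median was 270 per kb in cDC, where the cDC and pDC list covered them. The lists are scaled separately, so these values set levels side by side across scales. At identical bounds, the CDP libraries were 1.14 and 1.12 times as high in the CDP and cDC list as in the CDP and pDC list. The cDC libraries were 1.00 times as high in the CDP and cDC list as in the cDC and pDC list. Of all 68385 autosomal regions, 10866 (15.9%) lay outside the CDP and cDC list, a property that the choice used. Among the 34285 regions with the higher mean in pDC, 31.7% lay outside it, against 5 of the 34100 regions with the higher mean in CDP. This contrast was largely built in. Every autosomal region of the CDP and pDC list had at least 276.7 per kb in its higher group. A region higher in CDP thus had more CDP signal per kb than the 253 at which the CDP and cDC list began.

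The share of pDC gains outside the list was lower where the CDP signal was higher. This relation is partly built in, because the choice used the CDP signal and the list holds only regions with signal in CDP or cDC. When the 9552 gains were ordered by mean CDP signal per kb and divided into 5 groups of equal size, 92.4% of the lowest group (0 to 26.7 per kb) lay outside. The next 3 groups gave 88.2%, 77.1% and 65.4%. In the highest group, above 113 and up to 1009 per kb, 11.9% lay outside. The median length also rose, from 750 bp in the lowest group to 2200 bp in the highest. Whether length bears on the overlap was not tested.

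The 6401 regions were shorter and weaker than the pDC gains inside the list. Their median length was 950 bp, with quartiles of 500 and 1450 bp and a range of 300 to 7350 bp, against a median of 1900 bp for the 3151 other gains and 600 bp for all autosomal regions of the list. At least 3 kb was reached by 157 (2.45%) of the 6401 regions and by 22.5% of the other gains. Per kb, the median pDC signal was 465 in the 6401 regions and 929 in the other gains, and the median CDP signal was 45.4 and 120 per kb. The ratio of pDC to CDP ran the other way, with a median of 11.2 in the 6401 regions and 6.69 in the other gains. Both sets covered about the same length of genome, 7.14 Mb and 7.17 Mb. The CDP and cDC regions over the other gains were higher in cDC in 2504 cases and higher in CDP in 647. No test was made of these differences, because the absence from the CDP and cDC list depends on signal.

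**Figure D2:**
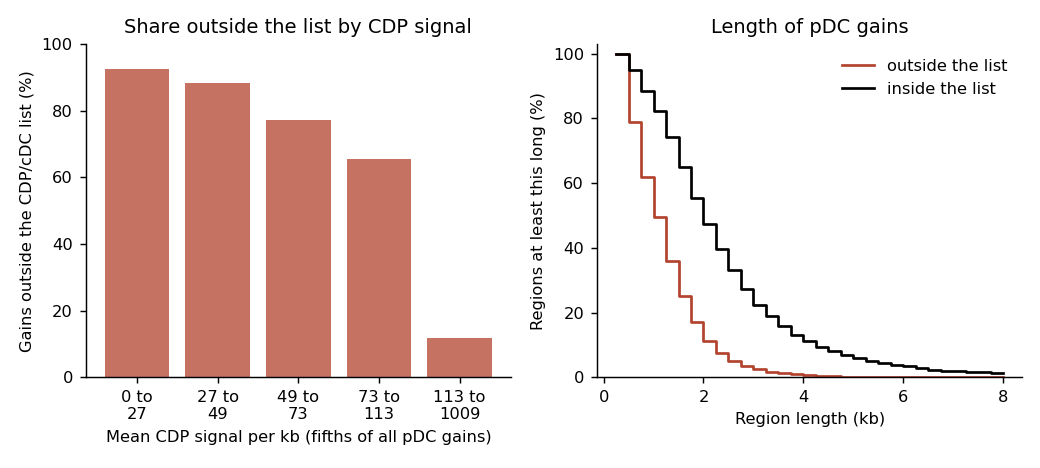
Left, share of the 9552 pDC gains outside the CDP and cDC list (vertical axis, %) in 5 equal groups by mean CDP signal per kb (horizontal axis), 92.4% in the lowest group and 11.9% in the highest. Right, share of regions at least as long as the length on the horizontal axis (kb), for the 6401 gains outside and the 3151 inside the list. The curve of the gains outside the list drops faster, with 2.45% at 3 kb against 22.5%.

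Mean pDC signal, which the choice used, is a total over the region and the numerator of the ratio, so that its relation to length and to the ratio is partly built in and is given as a description. In the lowest of 3 equal groups by mean pDC signal (100 to 264) the median length was 450 bp and the median ratio of pDC to CDP was 9.15. In the middle group (264 to 713.5) they were 950 bp and 9.45. In the highest group (714 to 14774) they were 1750 bp and 15.4.

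The same places were then read in the list of cDC and pDC, which shares the pDC libraries that chose the regions, so that its direction is partly fixed by the choice. Each of the 6401 regions lay under exactly 1 region of that list, which covered 85.1% of all autosomal regions of the CDP and pDC list. The cover was complete for 6293 regions (98.3%), and 2331 (36.4%) had identical bounds in both lists. The 6401 regions lay under 6301 distinct regions, since 98 of these held 198 of the gains. Of the other pDC gains, 3148 of 3151 were covered, as were 99.5% of all autosomal regions with the higher mean in pDC, so the full cover is no more than a listed signal in pDC gives.

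All 6401 regions were higher in pDC than in cDC by the authors' direction, which 57.0% of all autosomal regions of that list were. The choice set this direction in large part, through its high pDC signal and through the low cDC signal that goes with absence from the CDP and cDC list. The first-listed pDC library had a lowest, median and highest signal of 22, 502 and 28377, and the second-listed one had 9, 641 and 29988. The first-listed cDC library had 0, 36 and 11003, and the second-listed one had 0, 74 and 14571. These values belong to the whole covering region. For 239 gains that region was more than 2 times as long as the gain, so its values include bases outside the gain. In 6363 regions (99.4%) both pDC libraries lay above both cDC libraries, against 42.0% of all autosomal regions of the list. In the other 38 the groups overlapped; the second-listed cDC library reached a pDC library in 34 of them and the first-listed one in 6.

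The ratio of pDC to cDC had a median of 11.3, quartiles of 6.24 and 21.0 and a lowest value of 1.25. The lowest value was read on a longer region of that list, on chromosome 15 from 36722201 to 36727200, over a gain of 1800 bp. The median depended on the cDC library: it was 8.73 without the first-listed one and 17.9 without the second-listed one. A ratio of at least 4 with separate libraries was found in 5651 regions (88.3%), against 17.5% of all autosomal regions of the list and 44.9% of the other pDC gains. The other gains had a median ratio of pDC to cDC of 3.63, and 157 of them were higher in cDC. Per kb, the median cDC signal was 53.3 at the 6401 regions, 270 at the other gains and 447 over all autosomal regions of the list. In 26 of the 6401 regions both cDC libraries were listed at 0.

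The second-listed cDC library was above the first in 5365 regions (83.8%), with a median difference of 1.02 in log2 of signal plus 1 and a median SD of 0.79. Over all autosomal regions of that list it was above the first in 87.9%, with a median difference of 0.50. An offset between the cDC libraries was thus present across the list, with a larger median difference at these regions. Without the first-listed cDC library 81.3% of the regions were at least 4-fold higher in pDC with separate libraries, and without the second-listed one 93.7% were. When every library was scaled to the same autosomal total, 79.8% were, against 14.0% of all autosomal regions of the list. Under that scaling the median log2 ratio of all autosomal regions was -0.26 in place of 0.20, a shift of -0.46, and that of the 6401 regions was 3.08 in place of 3.50. The mean pDC signal remained above that of cDC in 6400 of the 6401 regions.

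**Figure D3:**
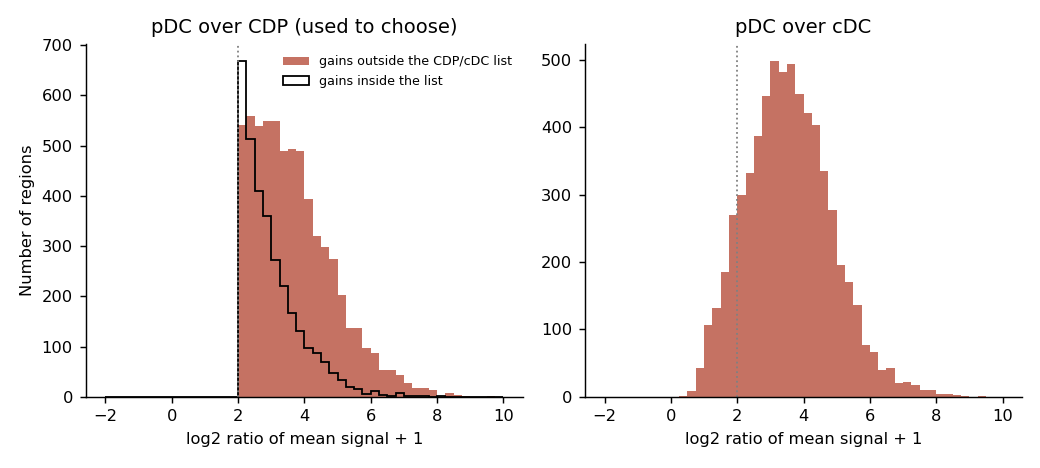
Distribution of the log2 ratio of mean signal plus 1 (horizontal axis) as the number of regions (vertical axis). Left, pDC over CDP for the 6401 gains outside the CDP and cDC list (filled) and the 3151 inside it (line), both starting at the 4-fold threshold (dotted) that chose them. Right, pDC over cDC for the 6401 gains outside the list, centred at a median of 3.50 with 748 regions under 4-fold.

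The 2331 regions with identical bounds in both lists allow the 2 ratios to be set side by side without a difference in region size. Their median ratio was 11.3 for pDC over CDP and 11.98 for pDC over cDC. The median of the mean signal was 39 in CDP and 50.5 in cDC, each on the scale of its own list. The ratio over CDP was the larger in 1146 of them (49.2%). The pDC libraries enter both ratios, so the pair is a description.

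The largest signals stood on long single regions. The strongest, on chromosome 16 from 19240601 to 19247050, had 17246 and 12302 in the pDC libraries, against 320 and 422 in the CDP libraries, a ratio of 39.7. In the cDC and pDC list it had 20418 and 14251 in the pDC libraries, against 137 and 435 in the cDC libraries, a ratio of 60.4. Both pDC libraries stood far above all others, and the first-listed one was the higher, as in a minority of the regions.

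A region on chromosome 9 from 32419201 to 32425850 had 10393 and 13955 in the pDC libraries, against 153 and 340 in the CDP libraries, a ratio of 49.2. Against cDC it had 12480 and 16374 in the pDC libraries and 80 and 397 in the cDC libraries, a ratio of 60.2. The pDC values of the 2 libraries lay close together in comparison with their distance from either other cell type.

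The longest region, 7350 bp on chromosome 1 from 166382151 to 166389500, had 12017 and 11990 in the pDC libraries, against 76 and 135 in the CDP libraries, a ratio of 113. In the other list it had 14386 and 14164 in the pDC libraries, against 277 and 757 in the cDC libraries, a ratio of 27.6. No library of either other cell type came near a pDC library. A shorter region of 4600 bp, on chromosome 11 from 64542601 to 64547200, had 7043 and 8543 in the pDC libraries, against 43 and 102 in the CDP libraries, a ratio of 106. Against cDC it had 8286 and 10002 in the pDC libraries and 33 and 260 in the cDC libraries, a ratio of 62.0. It was low in both other cell types, as was a 3200-bp region on chromosome 19 from 43317301 to 43320500, with ratios of 75.8 over CDP and 43.5 over cDC.

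Among the 10 regions of highest mean pDC signal, the ratio over CDP ran from 16.5 to 113 and the ratio over cDC from 13.2 to 62.0. The lowest ratio over cDC belonged to a 7250-bp region on chromosome 15 from 6536701 to 6543950, which lies within a longer region of the cDC and pDC list from 6529701 to 6544000. Its values there, 22874 and 29567 in pDC against 1219 and 2763 in cDC, therefore include bases outside the gain.

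**Figure D4:**
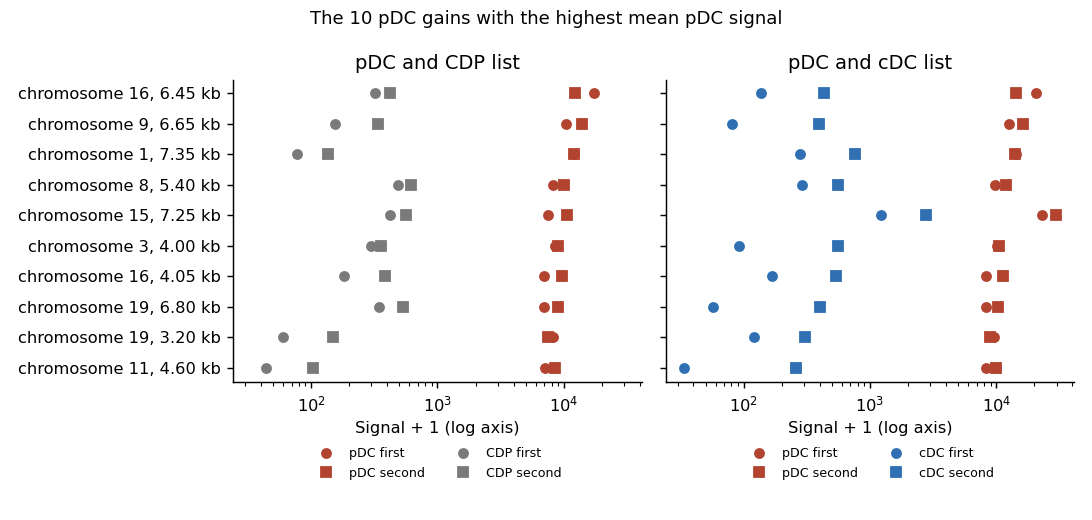
Signal plus 1 on a log axis (horizontal) in each library for the 10 pDC gains with the highest mean pDC signal, one region per line with its chromosome and length. Points are single libraries, in the pDC and CDP list on the left and in the pDC and cDC list on the right. In every line the pDC libraries lie to the right of both libraries of the other cell type, and the second-listed CDP or cDC library lies to the right of the first.

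The largest ratios came from regions nearly without signal in CDP. A region on chromosome 16 from 91795401 to 91796950 had 891 and 1149 in the pDC libraries, against 2 and 0 in the CDP libraries. In the cDC and pDC list it had 1086 and 1373 in the pDC libraries, against 21 and 32 in the cDC libraries, a ratio of 44.7. CDP was thus at or near 0, and cDC carried a small signal in both libraries.

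On chromosome 11 from 108122151 to 108123600, pDC had 1643 and 1908, against 6 and 2 in CDP, a ratio of 355. In the other list pDC had 1947 and 2243, against 7 and 122 in cDC, a ratio of 32. The cDC libraries differed from each other there, and both lay below both pDC libraries.

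Regions with both CDP libraries listed at 0 differed in their cDC signal. On chromosome 14 from 8147451 to 8148050, pDC had 374 and 369 where both CDP libraries were listed at 0, and 444 and 426 in the other list where both cDC libraries were listed at 0. On chromosome 16 from 91270551 to 91271550, pDC had 300 and 422 where both CDP libraries were again listed at 0. In the cDC and pDC list, however, that region had 350 and 493 in the pDC libraries, against 91 and 133 in the cDC libraries, a ratio of 3.74. Of the 10 regions with the largest ratio over CDP, this one had the lowest ratio over cDC, and no other was under 4.

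In the 10 regions with the highest ratio over cDC, 550 to 1350 bp long, each cDC library was listed at 0 or 1. The size of these ratios therefore depends on the 1 added to each mean. On chromosome 7 from 4992351 to 4993700, the cDC and pDC list had 666 and 801 in the pDC libraries, against 1 and 1 in the cDC libraries, a ratio of 367. The same region had 524 and 644 in the pDC libraries, against 39 and 75 in the CDP libraries, a ratio of 10.1. CDP held more of the mark there than cDC did, relative to pDC, and no library of either reached a pDC library.

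At the other end, 53 regions (0.828%) were less than 2-fold above cDC and 695 (10.9%) were between 2-fold and 4-fold. The 53 were short and weak, with a median length of 400 bp and a median mean signal of 141.5 in pDC, against 21 in CDP. In the cDC and pDC list their median mean cDC signal was 102.5. In 6 of them the region of that list was more than 2 times as long as the gain. Among those of like length in both lists, a region on chromosome 3 from 21366851 to 21367450 had the lowest ratio. It had 182 and 160 in the pDC libraries, against 3 and 40 in the CDP libraries, a ratio of 7.64. In the cDC and pDC list it had 208 and 180 in the pDC libraries, against 102 and 167 in the cDC libraries, a ratio of 1.44. The groups did not overlap, but the lower pDC library was close to the higher cDC library. A region on chromosome 11 from 86103401 to 86103750 had 163 and 135 in the pDC libraries, against 3 and 171 in the cDC libraries, so that 1 cDC library lay above both pDC libraries.

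MPP was read in the MPP and CDP list, whose CDP libraries were chosen low by the rule. That list covered 189 (2.95%) of the 6401 regions, against 73.6% of all autosomal regions of the CDP and pDC list and 43.4% of the other pDC gains. The 6212 regions without cover are places where that list has no region. Every region of it had at least 267.5 signal units per kb in the higher of MPP and CDP, which is above the highest CDP signal per kb of the gains, so that a gain could enter it mainly through MPP.

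All 189 covered regions were higher in MPP than in CDP, which 54.3% of all autosomal regions of the MPP and CDP list were. The first-listed MPP library had a lowest, median and highest signal of 55, 178 and 5176, and the second-listed one had 19, 152 and 3707. The first-listed CDP library had 0, 51 and 1543, and the second-listed one had 0, 51 and 1474. Both MPP libraries lay above both CDP libraries in 182 of the 189, against 32.4% of all autosomal regions of the list. The ratio of MPP to CDP had a median of 3.38 and a range of 1.39 to 25.4. At the same 189 places the median ratio was 6.40 for pDC over CDP and 10.0 for pDC over cDC. For these regions the median length was 1200 bp, and 14 of them were covered whole by the MPP and CDP region, so that the values of the lists often refer to different bases.

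A region on chromosome 8 from 97500851 to 97502150 had 807 and 824 in the pDC libraries, against 84 and 146 in the CDP libraries, a ratio of 7.04. It lay within a longer region of the MPP and CDP list, from 97500601 to 97506550, with 5176 and 3707 in the MPP libraries, against 236 and 383 in the CDP libraries, a ratio of 14.3. The values of that longer region include bases outside the gain, so the MPP signal within the gain itself is not known. In the list of cDC and pDC the pDC libraries had 987 and 1089, against 65 and 123 for the cDC libraries.

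On chromosome 16 from 4413651 to 4415000, pDC had 918 and 1154, against 34 and 20 in CDP, a ratio of 37.0. The region of the MPP and CDP list inside it, from 4414051 to 4414800, had 355 and 251 in the MPP libraries, against 33 and 18 in the CDP libraries, a ratio of 11.5. The groups did not overlap in either list. On chromosome 11 from 87073201 to 87074250 the ratio of pDC to CDP was 5.60, and the MPP region over it had 1147 and 878 in the MPP libraries, against 90 and 76 in the CDP libraries, a ratio of 12.1.

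**Figure D5:**
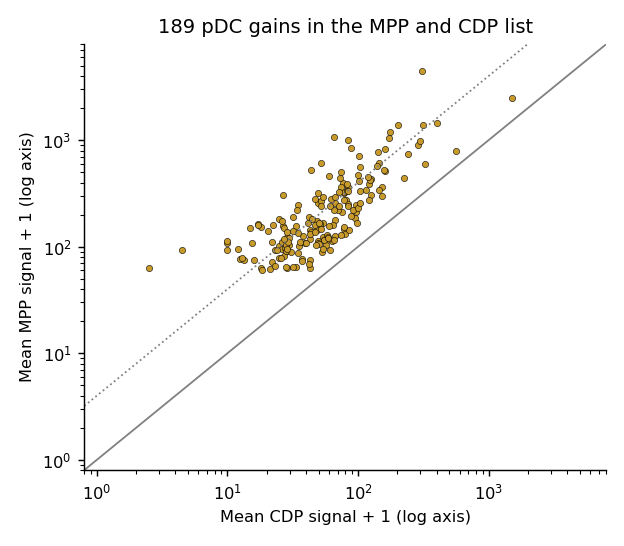
Mean MPP signal plus 1 (vertical log axis) against mean CDP signal plus 1 (horizontal log axis) in the MPP and CDP list, one point for each of the 189 pDC gains that this list covers. The solid line marks equal signal and the dotted line a ratio of 4. All 189 points lie above the solid line, with a median ratio of 3.38.

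The 6401 regions were spread over all autosomes. They made up between 7.75% (chromosome 10) and 11.3% (chromosome 14) of the listed regions of a chromosome. Their median ratio of pDC to CDP ran from 9.84 on chromosome 12 to 12.3 on chromosome 19, and that of pDC to cDC from 9.45 on chromosome 18 to 13.3 on chromosome 5. Of 1987 windows of 1 Mb that hold a listed region, 1489 (74.9%) held at least 1 of the gains and 122 held 10 or more, up to 22.

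Most of them had no other gain of the set within 1 kb. Joining gains less than 1 kb apart gave 5986 stretches, of which 399 held 2 or more gains, 814 in all, and the largest held 4. The nearest other gain of the set was 27.45 kb away at the median and within 100 kb for 75.5%. The nearest region of the CDP and cDC list was 10 kb away at the median, within 50 kb for 85.5% and within 1 kb for 440 (6.87%).

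The longest stretch, 9650 bp on chromosome 10 from 39027001 to 39036650, joined 2 gains with a summed signal of 9479 and 11863 in the pDC libraries, against 223 and 543 in the CDP libraries, a ratio of 27.9. A stretch of 4 gains on chromosome 18 from 69021101 to 69028950 had 6951 and 9249 in the pDC libraries, against 92 and 175 in the CDP libraries, a ratio of 60.7. In both stretches each pDC library was more than 10 times either CDP library.

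The gains were dense in a few windows of 100 kb. Over all autosomal regions of the CDP and pDC list they made up 9.36%. On chromosome 11 from 108076051 to 108174600, 8 gains summed to 10090 and 13553 in the pDC libraries, against 256 and 148 in the CDP libraries, a ratio of 58.5. The regions over them in the other list summed to 12208 and 16169 in the pDC libraries, against 87 and 810 in the cDC libraries, a ratio of 31.6. This window holds the region of 355-fold ratio described above, 10 regions of the CDP and pDC list in all and 1 region of the CDP and cDC list.

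On chromosome 2 from 26891251 to 26984700, 9 gains summed to 10309 and 13676 in the pDC libraries, against 593 and 1063 in the CDP libraries, a ratio of 14.5. The regions over them summed to 12616 and 16344 in the pDC libraries, against 409 and 748 in the cDC libraries, a ratio of 25.03. This window held 10 regions of the CDP and pDC list in all, and no region of the CDP and cDC list.

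The window with the most gains, 12, lay on chromosome 17 from 31897151 to 31987950. They summed to 3322 and 4065 in the pDC libraries, against 260 and 370 in the CDP libraries, a ratio of 11.7. The 12 regions over them in the cDC and pDC list, 15500 bp against 8450 bp of the gains, summed to 16463 and 18019 in the pDC libraries, against 4282 and 5935 in the cDC libraries, a ratio of 3.37. This window held 19 regions of the CDP and pDC list in all, 3 of them other pDC gains. It also held 6 regions of the CDP and cDC list, all higher in cDC. Gains outside that list thus stood among regions that cDC also carried.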

How the data were processed

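Per the labels' protocols, each precipitation used 1 µg of antibody and sheared chromatin with fragments of 200 to 400 bp. The labels name an Abcam antibody to H3K27ac and the protocol another maker. Reads were aligned with BWA 0.6.1 to mm9, per the submitters' processing notes. The series title names THOR, which calls differential peaks with replicates. The authors' deposited lists give bounds, a direction, a scaled signal per library and −log10 of a p-value, all the authors' own. No correction is stated. These signals are scaled values and not read counts, so depth is unknown. Input and RNA samples and a column without a name were not used.

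Which values belong to which cell type was taken from the list names. It was checked at identical bounds in 2 lists: 10 pairs of the same cell type and place differed by a constant factor with a log2 SD up to 0.0587, and the other 86 had 0.456 or more. MPP is in 1 list only. Values carry no replicate number, so the 2 libraries of a cell type are told apart by their place, first-listed or second-listed.

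A pseudocount of 1 was added to group means. Over stretches and windows signals were summed first. The regions and their rule were chosen with earlier results of these data known. Named regions come from the 10 with the largest ratio, signal or length, the 10 longest stretches and densest 100-kb windows, the 10 highest and lowest ratios over cDC, the 10 highest ratios over CDP in MPP, and the neighbours of the thresholds. A selection is given, made after the values were seen. The rule for low ratios over cDC was set after no region proved higher in cDC. Gene starts, gene lists and motifs were not analysed here, because an annotation and genome of mm9 were not used. Coordinates are 1-based. Scripts were tested on simulated data and used Python 3.11.15, numpy 2.4.6, pandas 2.3.3, scipy 1.17.1 and matplotlib 3.10.9.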

Additional observations from a re-analysis of the deposited data

How the results depend on the processing

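Of 62 alternatives, 56 stayed within the spread or range set for the value, 6 moved and 0 turned the direction. For the median log2 ratios the spread was 0.83 for pDC over cDC and 0.71 for pDC over CDP. A median of 4.16 against 3.50 for pDC over cDC therefore counted as unchanged. Counts and shares were held to other ranges, so the tally joins unlike measures and does not show how stable the results are. This tally is a description, because part of it was fixed in advance. Counts and shares have no direction, and the rule set that of pDC over CDP. A −log10 p of at least 10 could remove nothing, since the lowest value was 12.2. Each region lay under exactly 1 cDC and pDC region, so summing or choosing among such regions could change nothing. A ratio of at least 8 left 4211 regions. The count also varied among alternatives that stayed within the range set. A mean pDC signal of at least 200 left 4845 regions, and a length of at least 500 bp left 5049. With no minimum of pDC signal there were 7726 regions. There were 7895 when only an overlap of at least 50% with the CDP and cDC list removed a region. The share covered by the MPP and CDP list, 2.95%, became 2.41% with equal autosomal totals, 1.59% with a ratio of at least 8, 10.1% when only an overlap of at least 50% with the CDP and cDC list removed a region, and 1.14% when at least 50% of the region had to be covered. With no minimum of pDC signal, 99.9% of the regions were covered by the cDC and pDC list. Equal totals left 5561 regions. Leaving out each library gave 5790 to 6902 regions, a cover by the cDC and pDC list of 99.97% to 100%, a cover by the MPP and CDP list of 2.88% to 3.29%, a median log2 ratio of 3.27 to 3.90 for pDC over CDP and of 3.13 to 4.16 for pDC over cDC. Under equal totals, pDC over CDP had a median log2 ratio of 3.20, against 3.49 as deposited, and that of all autosomal regions of the list shifted by -0.30. The MPP shares over the alternative sets, the median at identical bounds and the changes to the 4-fold share over cDC were chosen after seeing the data. The alternatives for gene starts, gene lists and motifs were not run. No paired analysis was possible because the deposited values carry no replicate number. Depth is unknown, so differences at low signal have no counting error here.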

Other observations

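The X and Y chromosomes were outside the rule. On the X chromosome, 178 of 1429 listed regions met the ratio, signal and separation, and 128 of these had no overlap with the CDP and cDC list. These 128 regions were 8.96% of the listed regions there, and their median ratio of pDC to CDP was 20.2. On the Y chromosome, 1 of 144 listed regions met the criteria, and it overlapped the CDP and cDC list. The sex of the mice behind each library is not given in the sources used here.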
